A study of Mus musculus with 33 samples.

Results

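Whole olfactory epithelium of mice with 1 null copy of Dnmt3a (+/-, Het) was compared with that of wild-type mice (+/+, WT), within each of 2 treatments. The comparison rests on 4 RNA libraries of the 33 samples in the series: WT with water, WT with odor, Het with water and Het with odor. The libraries were taken by their labels for genotype, tissue and treatment. All mice were 3 weeks old. After 10 min in a cage without bedding they were exposed for 60 min to a paper with 80 µL of water, or of octanal, acetophenone and amyl acetate mixed in equal parts (odor). Total RNA of the dissected main olfactory epithelium was depleted of ribosomal RNA and made into libraries with the same kit. The 2 libraries of homozygous-null mice (-/-, KO), treated in the same way, served to estimate the spread between libraries and are given beside the results. The labels describe the mutant allele only as null, name no other allele or transgene, and do not say how many animals a library holds or their sex.

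Dnmt3a encodes a DNA methyltransferase that adds methyl groups to cytosine, mostly in the sequence CG, at sites not methylated before. The Tet enzymes (Tet1, Tet2 and Tet3) oxidise methylcytosine to hydroxymethylcytosine and further, which can lead to its removal. The olfactory epithelium is a neurogenic tissue: basal stem cells give rise to immature and then mature olfactory sensory neurons, each of which expresses a single odorant receptor gene and detects odor through a G protein, adenylyl cyclase and a cyclic nucleotide-gated channel. Sustentacular cells, gland cells, microvillous cells and glia surround them.

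Values are those the authors deposited on an RPKM scale, that is, reads per length of gene and per library size. Recovered reads numbered 12472278 and 13495341 in the WT libraries (water, then odor, as in all pairs of values below), 13316758 and 17639584 in Het, with 9410063 and 11384079 in KO. A difference is the log2 value of Het minus that of WT in the same treatment, after adding 0.5 to each value, so that 1 stands for about 2-fold and small values are pulled toward 0. The estimate over both treatments carries a standard error (SE) from limma, a linear model fitted to all genes. With 1 library per genotype and treatment the SE reflects how much genotype differences varied between treatments, and nothing in the labels says that libraries stand for separate animals, so a p-value describes the variation among these 6 libraries alone. The libraries hold whole tissue, so fewer cells of a type and less RNA per cell cannot be told apart.

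No gene passed the test between Het and WT. Limma, adjusted over 14602 genes by the Benjamini-Hochberg method, called 0 genes higher (0.0%) and 0 lower (0.0%) at a threshold of 0.05, and the smallest adjusted p was 0.706. In simulated data the same fit called 6% of genes given a 2-fold change, so a lack of calls does not show that the genotypes were alike. At an unadjusted p under 0.05 there were 395 genes higher (2.71%) and 582 lower (3.99%), while 490 and 708 did so by voom on whole reads, which made 0 calls after adjustment. Leaving out the WT water library gave 27 calls (24 higher, 3 lower), among them genes of brain tissue that were near 0 in WT odor, a library that stands apart from WT water and Het in its brain markers. Mobp (limma adjusted p = 0.0446), Chi3l4 (0.0446), Slc17a7 (0.0205) and Gfap (0.0173) were among the 24, and Lcn3, Lcn4 and Amelx, far higher in WT odor than elsewhere, were the 3. Leaving out any other library gave 0 calls. The rest of the account therefore describes differences that recurred in both treatments, which share no library.

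Between Het and WT, 140 genes were at least 2-fold higher in both treatments (0.959% of those tested) and 190 at least 2-fold lower in both (1.3%). With water alone, 630 genes were at least 2-fold higher (4.31%) and 563 lower (3.86%), and with odor alone 1127 were higher (7.72%) and 1029 lower (7.05%). A further 92 genes were 2-fold higher with water and 2-fold lower with odor (0.63%), and 59 the other way round (0.404%). Without regard to size, 4395 genes were higher in Het in both treatments (30.1%) and 4186 lower in both (28.7%). The counts of list members higher or lower in both, given below, are to be read beside these shares. Across genes, which are not independent replicates, the difference with water and the difference with odor correlated weakly (Pearson r = 0.191, Spearman rho = 0.224, 14602 genes). The differences varied more with odor (SD 0.838 over genes) than with water (SD 0.617).

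**Figure D1:**
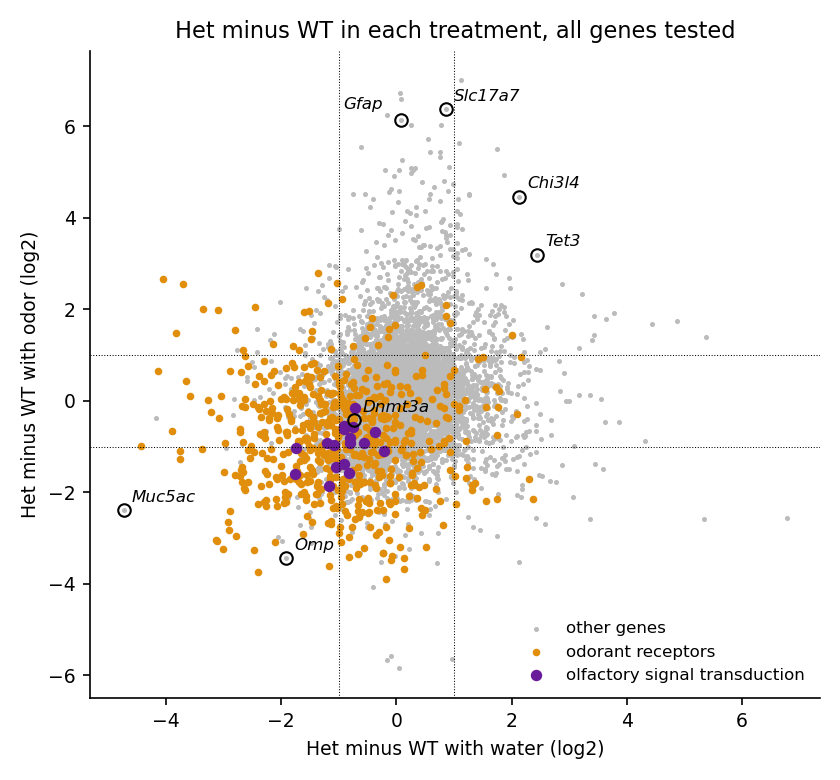
Each point is a gene, with the Het minus WT log2 difference with water on the horizontal axis and with odor on the vertical axis. Dotted lines mark 2-fold, odorant receptors are orange, olfactory signal transduction genes purple, and 7 genes are circled. Tet3 and Chi3l4 lie high in both treatments, Omp and Muc5ac low in both, and Slc17a7 and Gfap far higher with odor than with water.

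Of the 190 genes at least 2-fold lower in both treatments, 127 (66.8%) were odorant receptors, which made up 590 of the genes tested. The other 63 included 5 trace amine-associated receptors, 4 genes of olfactory signal transduction and further genes of mature olfactory neurons. Of the 140 genes at least 2-fold higher in both, 1 was an odorant receptor. Many of these genes were scarce: 39 of the 140 and 32 of the 190 had a mean of 100 reads or more. Both Het libraries lay above all 4 WT and KO libraries for 97 of the 140 genes, and below all 4 for 121 of the 190. Over all genes they lay above all 4 for 1677 (11.5%) and below all 4 for 1695 (11.6%). The 140 and 190 genes were selected for their distance from WT, so these shares of all genes are no reference for them. Among the 2775 genes with both Het libraries above both WT libraries, 1677 were also above both KO libraries. Among the 2630 with both Het libraries below both WT libraries, 1695 were also below both KO libraries.

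The targeted gene was lower in Het. Dnmt3a (ENSMUSG00000020661) had values of 84.4 and 89.0 in WT, 50.3 and 66.6 in Het, with 56.1 and 48.3 in KO. Both Het values lay below both WT values, and Het odor lay above both KO values. The difference was -0.74 with water and -0.42 with odor, and -0.58 ± 0.24 (SE) over both (limma adjusted p = 0.706). The deleted segment is not named in the labels, so transcript from the null allele can still be counted.

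Tet3 (ENSMUSG00000034832) was far higher in Het. Its values were 167 and 244 in WT, 906 and 2235 in Het, with 190.2 and 173 in KO. Het was 5.42 times WT with water and 9.18 times WT with odor, and the Het odor value was itself more than 2-fold above Het water. The values rest on 2557 and 3597 reads in WT, 14142 and 43643 in Het, with 2174 and 2244 in KO, which makes Tet3 one of the better counted of the genes described here. The difference over both treatments was 2.81 ± 0.34 (limma adjusted p = 0.706), and by the smaller of its differences Tet3 ranked 2 of all 14602 genes, behind the scarce Mnd1. Leaving out 1 library at a time gave differences from 2.26 to 3.36. In sorted mature olfactory neurons, for which the authors deposited 1 pooled value per genotype, Tet3 stood at 178 (WT), 171 (Het) and 158 (KO), so the high level was not seen there. The 2 library kits used for sorted cells were unequally spread over genotypes, so those pooled values carry no test.

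The genes next to Tet3 on its chromosome did not share its level. Of the 20 nearest genes in RefSeq order that the table holds, 8 were higher in Het in both treatments and 3 lower, with medians of 0.14 and 0.08. Their differences over both treatments ranged from -0.61 to 1.43, the highest in Actg2, a smooth muscle actin (11 and 4.01 in WT, 17.8 and 20.0 in Het), and none was 2-fold apart in both. Around Dnmt3a, 14 neighbours were measured. Of them 2 were higher and 6 lower in both treatments, with medians of -0.26 and -0.01. Both ends of their range were also members of other groups described here: Adcy3, adenylyl cyclase of the odor pathway, at -1.03, and Pfn4, a profilin, at 2.22. Pfn4 was 3.64 and 2.26 in WT, 15.7 and 14.8 in Het, with 7.79 and 6.87 in KO, from 3 to 26 reads in the WT and Het libraries.

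The genes whose log2 values followed Tet3 most closely over the 6 libraries were Lzts1 (Pearson r = 0.997), the tumour suppressor Trp53 (0.994), Bin2 (0.993), the matrix protein gene Mgp (0.993) and Mtap7d1 (0.990), among 13521 genes with a mean value of 5 or more. With 6 libraries and so many genes, such correlations are a description of these libraries only. The differences of these genes were much smaller than that of Tet3. Lzts1 was 43.2 and 51.5 in WT and 75 and 108 in Het, and Trp53 was 12.7 and 14.9 in WT and 22.9 and 27.4 in Het. Mgp was 895 and 933 in WT against 1087 and 1178 in Het.

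The other enzymes and readers of DNA methylation differed little. Of 10 writers and readers tested, 2 were higher in Het in both treatments and 5 lower, and 0 were 2-fold apart in both. Uhrf1, which guides the maintenance methyltransferase, was 17.7 and 18.0 in WT and 18.8 and 36.2 in Het. Dnmt1, the maintenance methyltransferase, was 222 and 238 in WT and 214 and 400.3 in Het, so that it was higher with odor only. Mbd3, a subunit of a chromatin remodelling complex, was 50.7 and 52.1 in WT and 66.7 and 89.4 in Het (0.58 ± 0.22). The methyl-CpG binding protein Mbd2 (-0.26 ± 0.21), the reader Zbtb33 (-0.35 ± 0.26) and the glycosylase Mbd4 (-0.28 ± 0.36) were slightly lower in both treatments. Mbd1 (-0.05 ± 0.23) and the methyltransferase Dnmt3b (-0.06 ± 0.60), which stayed under 2 in every library, had differences of opposite sign with water and odor.

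Among 14 genes of DNA demethylation, 7 were higher in Het in both treatments and 2 lower. Besides Tet3, only Gadd45b, a stress-response gene linked to active demethylation, was 2-fold apart in both. It was 27 and 45.9 in WT, 58.1 and 108 in Het, with 38.2 and 47.9 in KO, with a difference of 1.16 ± 0.25 (limma adjusted p = 0.706). Tet2 was 161 and 168 in WT and 154 and 102 in Het, and Tet1 was 28.8 and 25.4 in WT and 24.2 and 26.0 in Het, so neither shared the direction of Tet3. Ogt, the enzyme that adds N-acetylglucosamine to proteins and binds Tet proteins, was 150.1 and 142 in WT and 117 and 74.7 in Het. The base excision repair genes Tdg (0.02 ± 0.21), Apex1 (0.36 ± 0.51), Lig3 (-0.04 ± 0.34), Xrcc1 (0.18 ± 0.17) and Parp1 (0.26 ± 0.18) had differences within about 1.5 SE of 0. So had Gadd45a (-0.01 ± 0.21), Gadd45g (0.59 ± 0.64), Idh1 (0.27 ± 0.22) and Idh2 (0.20 ± 0.19), the latter pair making the cofactor of the Tet enzymes. Of 11 genes of the Polycomb repressive complex that methylates histone H3, 3 were higher and 4 lower in both treatments, with medians of -0.07 and -0.14.

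**Figure D2:**
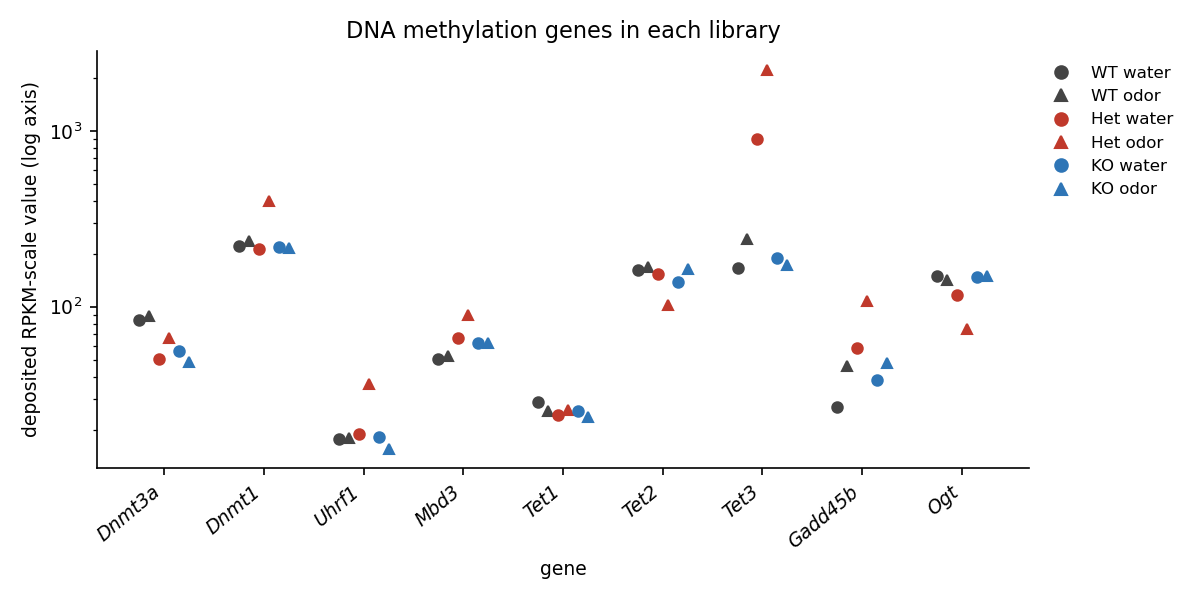
Deposited RPKM-scale values (log axis) of 9 DNA methylation genes, with circles for water and triangles for odor, and grey for WT, red for Het and blue for KO. Tet3 stands at 906 and 2235 in the Het libraries and between 167 and 244 in the other 4, while Dnmt3a is lower in Het and KO than in WT.

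Genes of the odor detection pathway were lower in Het throughout. All 17 genes of olfactory signal transduction tested were lower in Het in both treatments, and for all 17 both Het libraries lay below both WT libraries, which held for 18.0% of all genes (the reverse, Het above WT, held for 19%). For 16 of the 17 both Het libraries were also below both KO libraries. The median difference was -0.91 with water and -0.93 with odor, against -0.01 and 0.03 over all genes. At an unadjusted p under 0.05 there were 15 of the 17, against 3.99% of all genes lower at that threshold, and 0 passed the adjusted limma test. Genes named here beyond the 4 with the largest differences were added for their roles after their values were seen.

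The members of the pathway are taken in the order in which an odor signal passes through them. Rtp1 and Rtp2 carry odorant receptors to the cell surface; Rtp1 was 1049.8 and 769.9 in WT and 557 and 524 in Het. The receptor couples to a G protein whose alpha subunit is Gnal, at 2289 and 1978 in WT, 1103 and 726 in Het, with 1972 and 2804 in KO, a difference of -1.25 ± 0.31. Ric8b, which stabilises that subunit, was 2307 and 1125 in WT and 690.4 and 548 in Het, and the gamma subunit Gng13 was 1049 and 820.1 in WT and 625 and 554 in Het. The beta subunit Gnb1, which many cell types express, was 757 and 568 in WT and 457 and 508 in Het, the smallest difference of the pathway at -0.44 ± 0.23.

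Adenylyl cyclase, Adcy3, was 165 and 165 in WT, 77.4 and 84.1 in Het, with 136 and 216 in KO. Its product opens a channel of 3 subunits. Cnga2 was 1748 and 1558 in WT and 1002 and 819 in Het, and Cngb1 was 282 and 359 in WT and 159 and 120.3 in Het. Cnga4, the third, was 1889 and 1115 in WT, 555 and 369 in Het, with 1061 and 1170.3 in KO, and had the largest difference of the pathway (-1.68 ± 0.27, limma adjusted p = 0.706). The calcium-activated chloride channel Ano2 was 72.8 and 46.5 in WT and 31.2 and 24.4 in Het, and Stoml3, a stomatin of the cilia of these neurons, was 9320.0 and 7942 in WT and 4147 and 2171 in Het. The phosphodiesterases Pde1c (-1.14 ± 0.39) and Pde4a (-0.77 ± 0.18), the exchanger Slc24a4 (-0.74 ± 0.25), the cotransporter Slc12a2 (-0.66 ± 0.35) and Reep1 (-0.81 ± 0.20) were lower as well. In none of these genes did the ranges of WT and Het overlap.

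**Figure D3:**
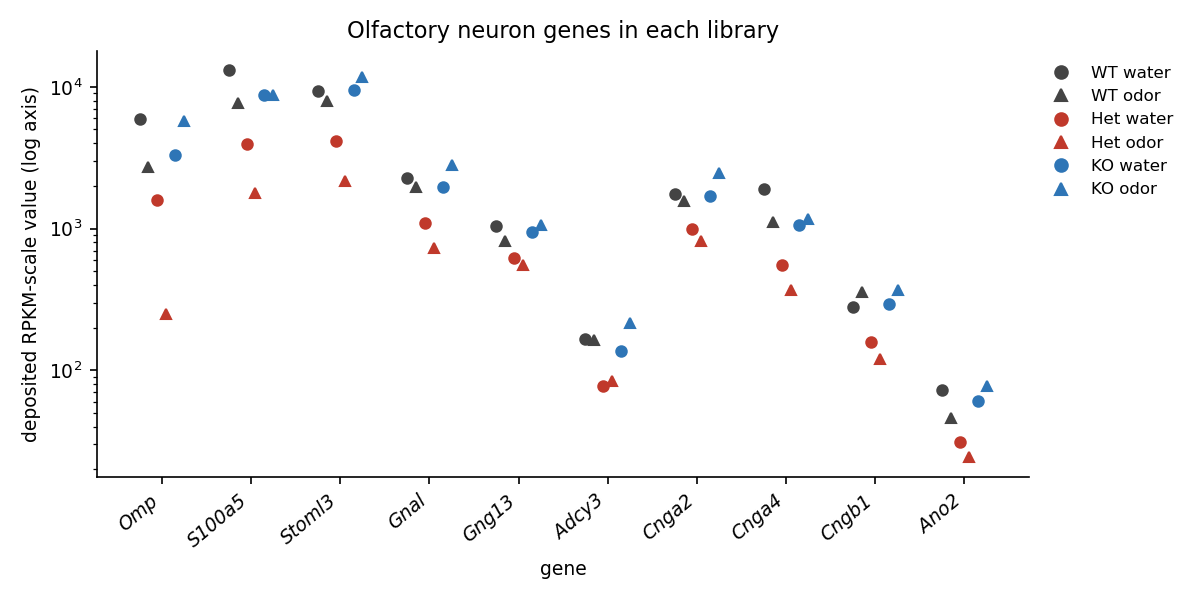
Deposited RPKM-scale values (log axis) of 10 olfactory neuron genes in each library, with the same symbols as the plot of methylation genes. In every gene both Het libraries (red) lie below all WT and KO libraries, and Omp is at 249 in Het odor.

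Omp, the olfactory marker protein that defines mature neurons, had the largest difference among the 22 markers of these cells. It was 5962 and 2717 in WT, 1582 and 249 in Het, with 3296 and 5752 in KO, a difference of -1.91 with water and -3.44 with odor (-2.68 ± 0.76, limma adjusted p = 0.706). S100a5, a calcium-binding protein abundant in mature olfactory neurons, was 13119 and 7712 in WT, 3941 and 1785 in Het, with 8746 and 8822 in KO (-1.92 ± 0.38). Umodl1, another marker of these neurons, was 286 and 359 in WT and 127 and 126 in Het. Of 22 mature neuron markers tested, which include several of the pathway genes above, 17 were lower in both treatments and 2 higher, with medians of -0.78 and -0.81. Their summed level was 28942 and 22403 in WT, 13530.0 and 9684 in Het, with 24684 and 31928 in KO.

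In sorted mature neurons the pooled values for Het and WT lay closer together. Over the 17 pathway genes the median log2 difference of the pooled values was -0.10, with 13 lower in Het. Over the 22 mature markers it was -0.03, also with 13 lower. S100a5 was 46290.0 in WT and 48793 in Het there, and Gnal was 5527 and 5512. Omp was the exception among these, at 16660.0 (WT), 10449 (Het) and 7612 (KO). Dnmt3a stood at 175 (WT), 119.9 (Het) and 56.2 (KO).

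Promoter sequences are printed for Tet3, which stood out as higher in Het, because CG is the sequence on which Dnmt3a acts. They are also printed for 2 lower genes, Cnga4 (29.4% and 33.1% of WT) and S100a5 (30.0% and 23.1%). Other genes stood at a lower share of WT, and so few windows allow no comparison of higher with lower genes. The windows run from 250 bases before to 50 after the start of the gene in RefSeq (assembly GRCm38.p6, not the build of the deposited values), read 5′ to 3′ on the strand of the gene, with each CG in capitals.
Tet3, chr6:83441629-83441928, minus strand: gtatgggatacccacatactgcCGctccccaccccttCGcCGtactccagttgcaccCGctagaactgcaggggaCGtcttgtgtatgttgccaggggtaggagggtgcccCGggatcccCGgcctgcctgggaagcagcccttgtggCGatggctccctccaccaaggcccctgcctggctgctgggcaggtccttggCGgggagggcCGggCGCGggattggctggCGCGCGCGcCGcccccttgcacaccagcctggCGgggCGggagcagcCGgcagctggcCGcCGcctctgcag
Cnga4, chr7:105404318-105404617, plus strand: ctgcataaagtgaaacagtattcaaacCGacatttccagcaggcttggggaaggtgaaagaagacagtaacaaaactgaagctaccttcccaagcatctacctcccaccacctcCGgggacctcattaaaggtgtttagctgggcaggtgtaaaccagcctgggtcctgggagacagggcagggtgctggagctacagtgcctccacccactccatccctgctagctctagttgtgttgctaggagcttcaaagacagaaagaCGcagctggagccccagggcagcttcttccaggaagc
S100a5, chr3:90608272-90608571, plus strand: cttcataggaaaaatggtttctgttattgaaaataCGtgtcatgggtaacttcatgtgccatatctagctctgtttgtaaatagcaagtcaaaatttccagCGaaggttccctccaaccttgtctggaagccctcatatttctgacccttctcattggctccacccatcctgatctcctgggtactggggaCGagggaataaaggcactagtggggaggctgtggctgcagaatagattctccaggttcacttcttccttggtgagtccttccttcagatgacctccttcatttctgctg
The Tet3 window holds 22 CG, and 23.1% of the 32851 windows of that length in the table hold as many or more, searched on the printed strand (CG reads the same on both). The Cnga4 and S100a5 windows hold 3 each, and 31.4% of windows hold no more. The median over all windows is 7, and 94.6% hold at least 1. Methylation was not measured in these tables. A comparison over the whole sets required a window for 80% of genes and was not made. Windows were found for 79.7% of the genes tested and 73.0% of the 63 lower genes that are not odorant receptors. The 140 higher genes (80.7%) and the 190 lower genes (81.05%) reached the required share.

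Odorant receptor genes, each expressed in a small share of mature neurons, were lower in Het as a family. Of 590 tested, 368 were lower in both treatments and 29 higher. With water 487 were lower and with odor 442, with median differences of -0.98 and -0.81. The middle 50% of receptors lay between -1.66 and -0.23 with water and between -1.70 and 0.01 with odor. At least 2-fold lower in both treatments were 127, or 21.5% of the family, and for 216 that were lower in both treatments the WT and Het ranges did not overlap. Over all genes, 1.3% were at least 2-fold lower in both treatments, and the Het libraries lay below both WT libraries in 18.0%. Their summed level was 22628 and 11127 in WT, 11421 and 6211 in Het, with 16406 and 27728 in KO. WT odor and Het water stood at nearly the same level, so the genotypes overlapped in this sum although Het was lower within each treatment.

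Single receptors rest on few reads, with medians of 31 and 15 per gene in WT and 17 and 11 in Het. Among the 19 receptors with a mean of 100 reads or more, 18 were lower in both treatments, with medians of -0.92 and -0.71. The receptors lowest in both treatments were Olfr18, at 24.7 and 30.7 in WT, 2.42 and 3.22 in Het, with 16.5 and 29.1 in KO, Olfr1155 and Olfr1477. Olfr18 was counted with 30 and 36 reads in WT against 3 and 5 in Het. Olfr1155 was 73.4 and 16.7 in WT and 7.88 and 1.58 in Het, but 5.39 in KO water, and Olfr1477 was 71.7 and 23.3 in WT and 8.47 and 2.03 in Het. The receptors highest in both were Olfr248 (4.71 and 2.92 in WT, 20.3 and 8.85 in Het), Olfr773 (8.52 and 3.92, then 25 and 8.16) and Olfr784 (3.96 and 6.15, then 19.4 and 12.4). In sorted neurons the median pooled difference over 515 receptors was -0.02.

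Trace amine-associated receptors, another family of olfactory receptors, showed the same direction in 8 of 11 genes, with 1 higher in both, and 5 were at least 2-fold lower in both. Over all genes tested in the epithelium, 28.7% were lower in both treatments, 30.1% higher in both and 1.3% at least 2-fold lower in both. Taar9 was 39.0 and 24.7 in WT and 13.3 and 3.74 in Het, and Taar7f was 20.3 and 39.3 in WT and 6.92 and 4.15 in Het. In sorted neurons the pooled value was lower in Het for 8 of 9 trace amine-associated receptors, with a median difference of -0.28. Over all genes it was lower for 7285 of 13359. Clustered protocadherins, cell-surface proteins that give neurons individual identities, were lower in both treatments in 14 of 24 and higher in 1. Pcdhb1 was 495 and 588 in WT, 237 and 147 in Het, with 474 and 461 in KO (-1.53 ± 0.26), and Pcdhb12 was 41.1 and 16.5 in WT and 16.0 and 8.59 in Het.

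Markers of earlier stages of the neuronal lineage differed between lists. Of 18 genes of globose basal cells and dividing progenitors, 13 were higher in both treatments and 1 lower, with medians of 0.12 and 0.47. Neurog1, a proneural transcription factor, was 14.3 and 29.7 in WT, 44.9 and 85.3 in Het, with 21.5 and 17.6 in KO (1.56 ± 0.40). Rrm2, a subunit of ribonucleotide reductase used in DNA replication, was 51.3 and 60.9 in WT and 67.0 and 117 in Het. Of 20 immature neuron markers, 16 were lower with water and 0 with odor, with medians of -0.17 and 0.75, so that 4 were higher in both and 0 lower in both. Among those 4, Gng8, a G protein gamma subunit of immature neurons, was 209 and 151 in WT and 225 and 274 in Het, and Nhlh1, a neuronal transcription factor, was 484 and 391 in WT and 489 and 771 in Het. Replication-dependent histone genes were higher in both treatments in 45 of 64 and lower in 3, with medians of 0.29 and 0.78. Among them Hist1h1a, a linker histone, was 26.7 and 43.5 in WT and 98.5 and 92.7 in Het, and Hist1h3c was 809 and 983 in WT and 1292 and 1856 in Het.

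**Figure D4:**
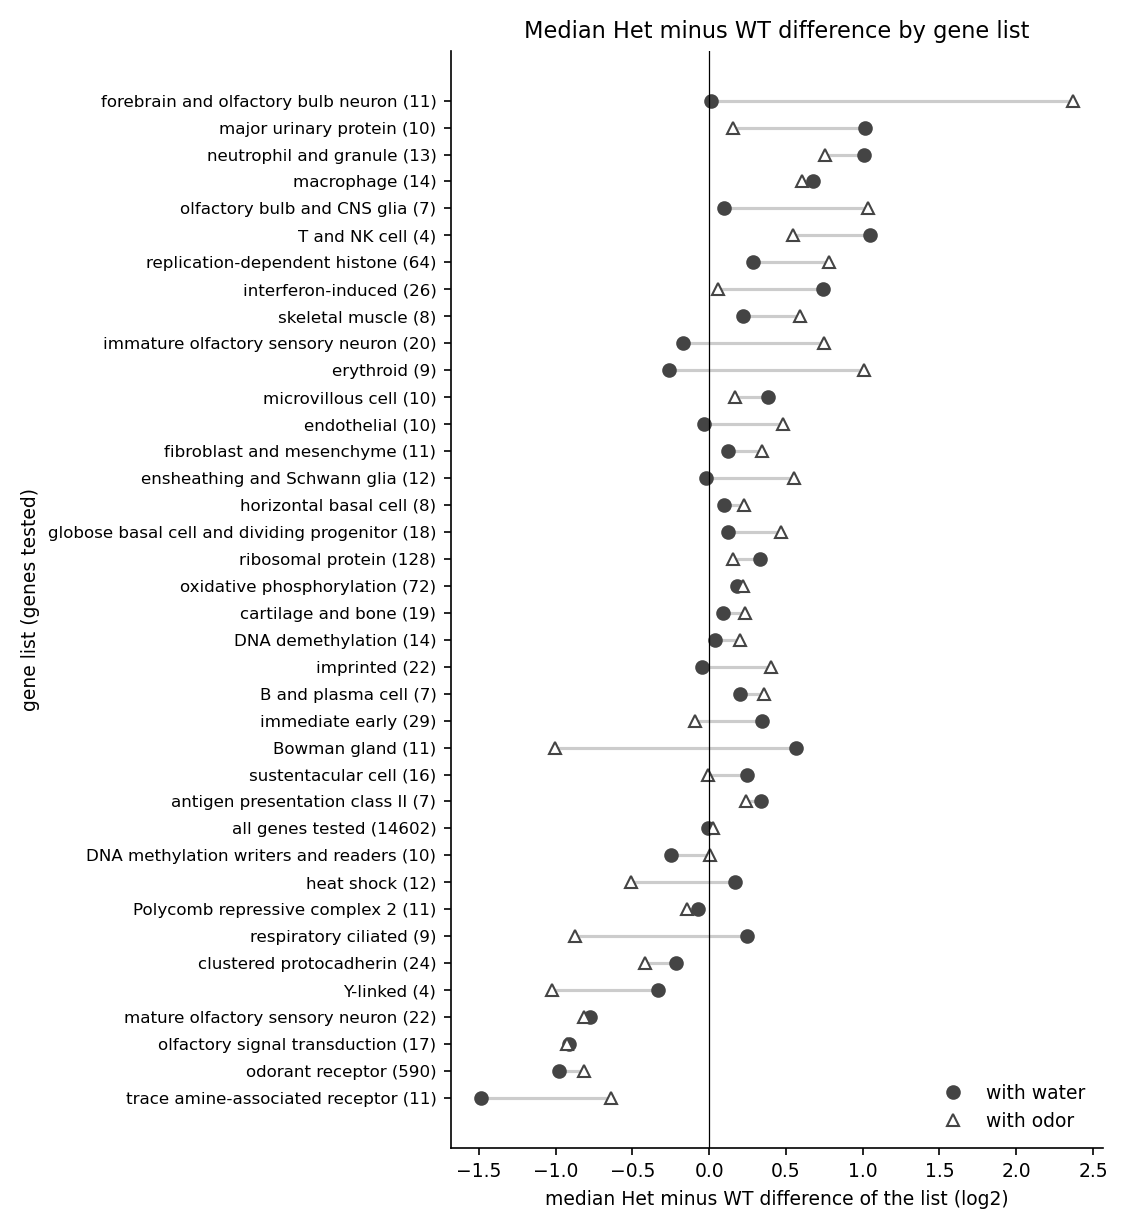
Median Het minus WT log2 difference of each gene list with water (filled circles) and with odor (open triangles), joined by a grey line, with the number of genes tested in parentheses. Receptors, signal transduction and mature neuron lists lie near -0.6 or below in both treatments, neutrophil and macrophage lists above 0.6 in both, and 11 lists lie on opposite sides of 0.

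Neutrophil and macrophage markers were mostly higher in Het, while erythroid markers were not, with 7 of 9 lower with water and 0 lower with odor. Of 13 neutrophil and granule genes, 11 were higher in both treatments and 0 lower, with medians of 1.01 and 0.75. S100a8, a calcium-binding protein of neutrophils, was 899.8 and 1562 in WT, 1813 and 2982 in Het, with 1415 and 1761 in KO, and Elane, neutrophil elastase, was 9.30 and 27.8 in WT and 57.7 and 61.5 in Het. The granule proteins Mpo (7.56 and 23.4 in WT, 23.9 and 45.3 in Het) and Prtn3 (4.81 and 7.11, then 12.1 and 19.7) did likewise. The summed level of the list was 2233 and 6025 in WT, 4527 and 7856 in Het, with 4275 and 4645 in KO. The WT and Het ranges overlapped. The median KO minus WT difference was 0.94 with water, near the 1.01 of Het, and -0.24 with odor. Of 14 macrophage genes, 10 were higher in both treatments and 1 lower, with medians of 0.67 and 0.60. The complement genes C1qa (129.8 and 182 in WT, 246 and 311 in Het), C1qb (38.5 and 79.6, then 152 and 161) and C1qc (12.8 and 16.0, then 42.0 and 52.0) had their Het values above all WT and KO values. The summed level of macrophage markers was 1311 and 1735 in WT, 2472 and 2513 in Het, with 1929 and 4148 in KO. Their median KO minus WT difference was 0.59 with water, near the 0.67 of Het, and -0.21 with odor. Both lists were higher in the genotype in which olfactory neuron genes were lower, and their part in that result was not tested.

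Among lymphocyte markers, 4 of 13 genes of T and NK cells were tested, of which 2 were higher in both treatments, among them the chemokine Ccl5 (5.55 and 3.28 in WT, 13.2 and 8.69 in Het, 60.4 and 15.9 in KO). Of 7 B cell genes, 4 were higher and 2 lower; Vpreb3, of B cell precursors, was 28.1 and 38.5 in WT and 53.6 and 74.2 in Het. Of 26 interferon-induced genes 14 were higher in both and 3 lower, with medians of 0.74 and 0.06, and Usp18 was 17.7 and 21.7 in WT, 30.0 and 33.2 in Het, with 43.9 and 47.6 in KO. Class II antigen presentation genes were higher in both in 3 of 7 and lower in 1.

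Genes of the brain were low in WT odor, and also in KO water, beside the other WT and Het libraries. Gad1, which makes the transmitter GABA, was 47.6 in WT water but 1.47 in WT odor, against 71.6 and 85.0 in Het, with 3.22 and 24.2 in KO. Slc17a7, a vesicular glutamate transporter of forebrain and olfactory bulb neurons, was 37.9 and 1.67 in WT, 69.1 and 179.9 in Het, with 4.33 and 34.0 in KO. The astrocyte filament Gfap was 98.2 and 2.99 in WT, 104 and 246 in Het, with 17.0 and 86.5 in KO, and the glutamate receptor Gria2 was 24.5 and 0.382 in WT and 29.2 and 29.4 in Het. The 11 markers of forebrain and bulb neurons had medians of 0.01 with water and 2.37 with odor, and the 7 of bulb and CNS glia 0.10 and 1.04. With water, 6 of the 11 were higher in Het and 5 lower, and 5 of the 7 were higher and 2 lower. Their summed levels in WT water lay within or near the Het range, at 1539 against 1430.4 and 1711 for the neurons and 759 against 836 and 994 for glia, while WT odor was lowest of the WT and Het libraries in both lists, at 955 and 576. In KO the sums were 974 and 1261 for the neurons and 519 and 763 for glia, so that KO water was as low as WT odor. Whether the content of brain tissue took part in the genotype differences was not tested. Of the 140 genes 2-fold higher in Het in both treatments, 40 had a WT odor value under 50% of the WT water value. So had 82 of the 190 genes 2-fold lower in both, 7 of them among the 63 that are not odorant receptors. These counts stand without a share over all genes and do not measure brain tissue. Among the 40 were Ddn (74.0 and 2.11 in WT, 161 and 336 in Het, 13.3 and 65.7 in KO) and Myo16 (21.6 and 3.34, then 52.4 and 87.5, then 4.22 and 9.34). Both lie outside the 2 brain lists. They were near their lowest in WT odor but also at least 2-fold higher in Het with water.

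**Figure D5:**
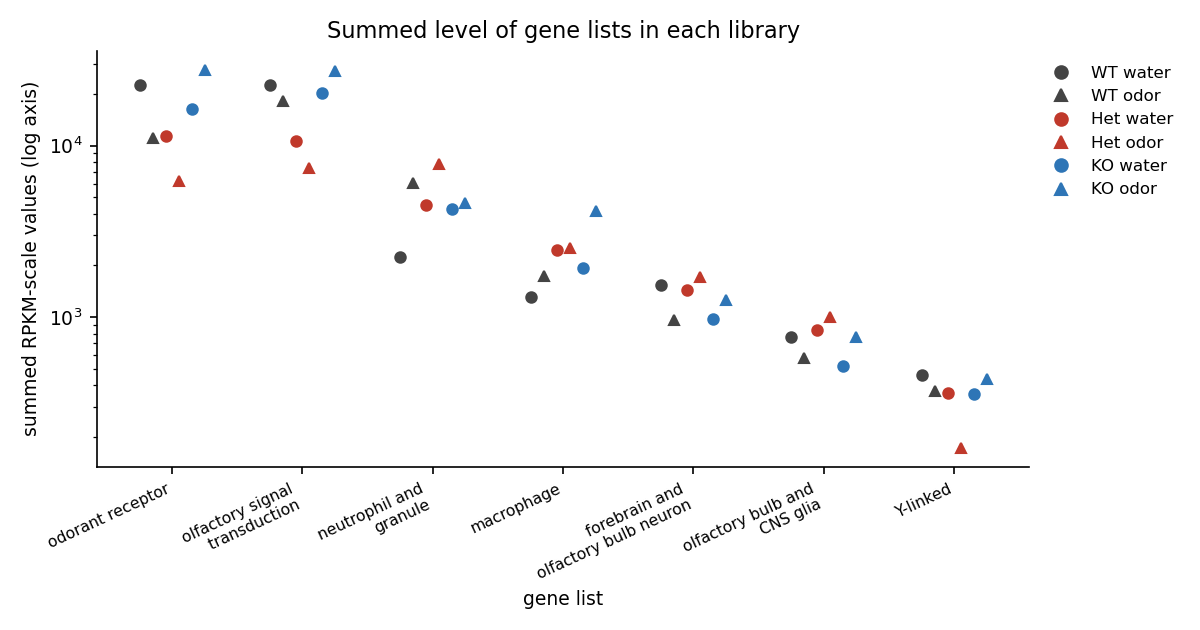
Summed RPKM-scale values (log axis) of 7 gene lists in each library, with circles for water, triangles for odor, and grey for WT, red for Het and blue for KO. Signal transduction genes are lowest in the 2 Het libraries, the 2 brain lists are lower in WT odor than in WT water and Het, and Y-linked genes are lowest in Het odor.

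Of the glial genes, 3 that encode myelin proteins were higher in Het in both treatments and were chosen after their values were seen. Mobp, of oligodendrocyte myelin, was 13.2 and 1.08 in WT and 49.4 and 47.9 in Het, Mbp, the main myelin protein gene, was 29.2 and 23.6 in WT, 65.1 and 71.4 in Het, with 27.2 and 21.8 in KO (1.36 ± 0.26), and Mag was 2.02 and 1.67 in WT and 4.61 and 8.64 in Het. The 12 ensheathing and Schwann glia markers as a list did not share that direction: 7 were lower with water, 5 were higher in both treatments and 3 lower in both.

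Y-linked genes were detected in every library and were lower in Het in 4 of 4, with medians of -0.34 and -1.02. Ddx3y was 111 and 117 in WT, 93.7 and 44.0 in Het, with 72.7 and 117 in KO. The summed level of the 4 genes was 455 and 370.4 in WT, 358 and 172 in Het, with 354.5 and 435.7 in KO, so KO water was near Het water. The WT and Het ranges did not overlap in 2 of the 4. Of 4 listed genes of X inactivation, 0 were tested. The sex of the animals and how many were pooled were not given, so a difference in the make-up of the pools cannot be told apart from genotype.

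The non-neuronal lists of the epithelium itself differed less, or differed between treatments. Of 16 sustentacular cell genes, 6 were higher in both and 2 lower. Of 10 microvillous cell genes, 7 were higher in both and 0 lower, and Foxi1, a transcription factor of ionocyte-like cells, was 69.4 and 106 in WT and 113 and 168 in Het. Of 9 genes of respiratory ciliated cells, 2 were lower in both and 0 higher: the ciliary genes Ccdc39 (106 and 88.1 in WT, 61.3 and 24.2 in Het) and Tekt1 (44.3 and 52.9, then 31.5 and 32.0). Horizontal basal cell markers were higher in both in 4 of 8 and lower in 1, fibroblast markers in 7 of 11 and 0, cartilage and bone markers in 10 of 19 and 4, and skeletal muscle markers in 5 of 8 and 1. Major urinary protein genes, some made in nasal glands, were higher in both in 6 of 10 and lower in 1, with medians of 1.02 and 0.16. The WT and Het ranges did not overlap in 2 of the 10. Their summed level was 36988 and 46990 in WT and 89186 and 35308 in Het, so by this sum Het was lower with odor.

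Housekeeping groups were slightly higher in Het. Ribosomal protein genes were higher in both treatments in 76 of 128 and lower in 12, with medians of 0.33 and 0.15. Their median KO minus WT difference was 0.25 and 0.12, so KO shared this direction. Rps29 was 84.9 and 86.8 in WT, 245 and 136 in Het, with 127 and 161 in KO. Oxidative phosphorylation genes were higher in both in 46 of 72 and lower in 2, with medians of 0.18 and 0.22, for example Ndufb3 at 436 and 352 in WT and 675 and 506 in Het and Atp5j2 at 92.5 and 85.6 in WT and 157 and 124 in Het. Over all genes the share higher in both was 30.1%.

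Immediate early genes, which neurons induce on activity, showed no common direction, with 11 of 29 higher in both treatments and 9 lower, and medians of 0.35 and -0.09. Egr3 was 7.09 and 8.45 in WT, 16.0 and 36.1 in Het, with 5.70 and 6.28 in KO, and Arc was 21.8 and 77.6 in WT and 68.9 and 165 in Het. Atf3, a stress-induced transcription factor, was 6.08 and 96.8 in WT and 1.86 and 31.6 in Het, so it was lower in Het within each treatment while the ranges of the genotypes overlapped. Gem, a small GTPase, was 53.2 and 72.6 in WT and 13.0 and 27 in Het.

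Among named single genes with a mean of 5 or more in the higher genotype, those with large differences in both treatments included the following. Mnd1, which acts in meiotic recombination, was 9.79 and 4.51 in WT, 74.6 and 29.0 in Het, with 39.3 and 11.6 in KO, from 9 and 4 reads in WT and 70 and 34 in Het. Chi3l4, a chitinase-like protein, was 156 and 46.1 in WT, 680.3 and 1031 in Het, with 39.5 and 23.0 in KO, from 311 and 89 reads in WT and 1388 and 2631 in Het (3.30 ± 0.53, limma adjusted p = 0.706). It has close relatives in the genome whose reads may be shared with it. Gpr171, a G protein-coupled receptor, was 0.855 and 1.33 in WT and 12.1 and 8.70 in Het, from 2 and 3 reads in WT, and Begain was 1.43 and 2.23 in WT and 7.03 and 17.1 in Het. Zfp831 (1.36 and 2.61 in WT, 6.27 and 12.5 in Het) and the cytokine receptor Crlf2 (1.05 and 3.97, then 5.12 and 16.6) had WT values under 5.

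For another 3 genes on the higher side the WT libraries differed widely from each other. The homeobox gene Irx1 was 2.0 and 13.3 in WT, 33.8 and 51.8 in Het, with 41.8 and 3.78 in KO. Hapln4, a link protein of the neuronal matrix, was 0.798 and 4.40 in WT, 13.5 and 17.3 in Het, with 3.20 and 3.14 in KO. The aldehyde oxidase Aox4 was 0.185 and 5.09 in WT, 8.08 and 18.9 in Het, with 6.20 and 2.08 in KO. Their standard errors were 1.28, 0.60 and 1.03.

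Better counted genes with small standard errors were Ier5l, Thy1 and Bex1. Ier5l, related to an immediate early gene, was 66.8 and 88.2 in WT, 203 and 253 in Het, with 93.5 and 101 in KO (1.56 ± 0.19). Thy1, a surface protein of neurons, T cells and fibroblasts, was 43.3 and 39.2 in WT, 142 and 130.5 in Het, with 26.4 and 30.4 in KO (1.71 ± 0.22). Bex1, expressed in immature olfactory neurons, was 44.2 and 33.2 in WT, 115 and 87.2 in Het, with 45.6 and 34.6 in KO (1.37 ± 0.21). Each had an adjusted p of 0.706 with limma.

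On the lower side, Muc5ac, a secreted mucin, was 74.8 and 17.2 in WT, 2.32 and 2.87 in Het, with 10.7 and 4.37 in KO, so that the 2 WT libraries themselves differed more than 4-fold. Aard was 26.1 and 41.0 in WT, 6.23 and 4.43 in Het, with 17.0 and 16.7 in KO, and the transporter Slc23a3 was 4.39 and 7.66 in WT and 0.679 and 0.543 in Het, from 3 reads in each Het library. Rasgrp4, an activator of Ras, was 22.7 and 31.2 in WT and 6.77 and 4.35 in Het. The cytochrome Cyp2b13 (17.7 and 12.1 in WT, 4.47 and 2.38 in Het), Sval2 (16.5 and 7.64, then 5.52 and 1.02) and the transcription factor gene Pou5f1 (5.83 and 6.04, then 1.77 and 0.472) were scarce in Het, and the Pou5f1 reads may be shared with its pseudogenes. The potassium channel genes Kcng1 (206 and 341 in WT, 78.5 and 115 in Het, 186 and 395 in KO) and Kcnc4 (1461 and 1676, then 709 and 564, then 1528 and 1628) had standard errors of 0.20 and 0.22. Coro2a, an actin-binding coronin, was 97 and 125 in WT, 42.6 and 48.7 in Het, with 99.8 and 114 in KO (-1.26 ± 0.19). For these last 3 genes both Het libraries lay below all WT and KO libraries.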

How the data were processed

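RNA of whole main olfactory epithelium was measured in 6 libraries, 1 for each of 3 genotypes and 2 treatments. The authors deposited 1 table of RPKM values for the 14613 genes of these libraries, and another with 1 pooled RPKM value per genotype for sorted mature neurons. The submitters' processing notes name STAR 2.3.0, Bowtie2 2.1, Picard 1.64, featureCounts and DESeq, without saying which step made the RPKM values, and the builds NCBIM37 and mm9. Low values in the epithelium table were whole multiples of 1 read within a relative tolerance of 1e-05, which gave back whole reads for 100% of genes. Totals ran from 9410063 to 17639584 reads, and the median gene held from 222 to 396.

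Genes with 0.5 or more in at least 2 libraries were kept (14602), and 0.5 was added before taking log2. Limma 3.58.1 in R 4.3.3 fitted genotype and treatment to all 6 libraries with a trended prior and 2 residual degrees of freedom, two-sided, adjusted by Benjamini-Hochberg. The fit and the recovery of reads were tested on simulated data.

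The comparison, the gene lists and their members were chosen with earlier results of these data known. Genes named were Dnmt3a and Tet3, the 12 in each direction with the largest smaller-of-the-2 difference (with a mean of 5 or more in the higher genotype, and leaving out olfactory and vomeronasal receptors, trace amine-associated receptors and genes with only a provisional symbol), the 3 odorant receptors in each direction by that measure, the 5 in each direction with the smallest p, up to 4 members of a list by that measure, the members of both methylation lists (1 of which is not reported here), and the 5 genes most like Tet3. Other signal transduction genes, Actg2, Gad1, Gria2 and the genes called without WT water were chosen after their values were seen, as were further examples within lists. Gene names are those deposited with the values, or the reference symbol where none was given. A reference symbol was matched to 14337 genes. Alternatives were other pseudocounts, filters, folds, scalings and voom on whole reads, and leaving out each library.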

Additional observations from a re-analysis of the deposited data

Results flagged for a closer look

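For 11 gene lists the median Het minus WT log2 difference had opposite signs with water and with odor. Each difference rests on 1 pair of libraries, and the change of sign was not tested.

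Bowman gland genes, which include secreted lipocalins and odorant-binding proteins, had medians of 0.567 with water and -1.004 with odor. Their summed level was 29011 and 120200.0 in WT (water, then odor) against 111320.0 and 46705 in Het, so that the order of the genotypes turned over between treatments. Respiratory ciliated cell genes stood at 0.249 with water and -0.873 with odor, and heat shock genes at 0.170 and -0.508. The summed level of heat shock genes was far higher with odor in WT (6722 and 23422) and in Het (6790.1 and 16681). In KO it was not, at 6326 and 5154. Immediate early genes were at 0.346 and -0.0922, and sustentacular cell genes at 0.249 and -0.00479.

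The opposite order, lower with water and higher with odor, was seen in 6 lists. Erythroid genes had medians of -0.263 and 1.008, immature olfactory neuron genes -0.169 and 0.751, and ensheathing and Schwann glia genes -0.0224 and 0.556. Endothelial genes were at -0.0308 and 0.484, imprinted genes at -0.0494 and 0.403, and DNA methylation writers and readers at -0.248 and 0.00464. Several of these medians lie close to 0 in one treatment.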

How the results depend on the processing

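Tet3 and Dnmt3a kept their direction under all 17 alternatives tried, and neither passed limma's threshold in any. The 330 genes at least 2-fold apart in both treatments became 71 (39 higher, 32 lower) with a mean of 100 reads or more, 1046 (513 and 533) at 1.5-fold and 83 (30 and 53) at 3-fold. Leaving out 1 library, which leaves 1 treatment for this count, gave from 1193 to 2156 genes. Limma made from 0 to 27 calls with 1 library left out, the 27 without WT water, where WT is represented by WT odor alone. It made 0 under each other alternative.

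Of 1948 values of single genes under the alternatives, 20 changed sign and 4 passed the threshold. Tdg turned to -0.00011 with median-ratio scaling and -0.00014 with voom on recovered reads, and Gadd45a to 0.0158 with quantile normalization. With 1 library left out, the log2 difference ran from -0.0376 to 6.06 for Gad1, from -0.18 to 6.41 for Gfap and from -0.23 to 5.57 for Gria2, each below 0 without WT odor. It ran from -0.0828 to 0.78 for Dnmt1, -0.28 to 0.17 for Mbd1, -0.39 to 0.28 for Dnmt3b, -0.65 to 0.078 for Mbd4, -0.19 to 0.11 for Lig3, -0.17 to 1.35 for Gadd45g, -0.0442 to 0.0749 for Tdg, -0.46 to 1.19 for Apex1, -0.16 to 0.15 for Gadd45a and -0.23 to 0.0138 for Tet1. Of 516 list medians under the alternatives, 75 moved by more than the spread and 26 changed sign, 1 of them with all libraries kept (B and plasma cell genes with a mean of 100 reads or more). The cause was not tested. No paired analysis was possible because each genotype and treatment has 1 library, and treatment is already a term of the fit. Single receptors rest on few reads, and the fit has 2 residual degrees of freedom.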
